A study of Homo sapiens with 4 samples.

Results

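The proteasome is the barrel-shaped protease that degrades ubiquitin-tagged proteins, and 42 of its genes were followed here in KM-H2 cells, an established human Hodgkin lymphoma line. They are the genes whose symbol is PSM, a letter from A to G and digits only, that have a probe set naming 1 gene. Of a gene's probe sets the one with the highest mean was used, and 42 of 42 passed the filter on low values, out of 19775 genes named on the array and 12922 tested. PSMA6 and PSME2 sit only on probe sets naming several genes, and PSMC5, PSMD7, PSMD13 and PSMB11 have no probe set of this kind, so these 6 were not analysed here. The symbols PSMC3IP, PSME3IP1, PSMD7-DT and PSMD14-DT also begin this way but name other genes or divergent transcripts, and were left out.

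The core particle is a stack of rings of alpha and beta subunits, with the cutting sites on the inner face of the beta rings. A regulatory particle with an ATPase base and a lid recognises, unfolds and feeds in the tagged protein. Under interferon gamma, and constitutively in many cells of lymphoid origin, the catalytic subunits PSMB5, PSMB6 and PSMB7 can be replaced by PSMB8, PSMB9 and PSMB10, which form the immunoproteasome and alter which peptides are made for display on class I molecules.

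RNA was measured on 4 single-colour Affymetrix arrays, 2 of KM-H2 cells carrying a non-silencing control and 2 of KM-H2 cells transduced with a lentiviral pGIPZ vector whose hairpin targets the BX648577 portion of the CIITA-BX648577 fusion transcript. The labels describe all 4 as transduced cells of this line, which carries the fusion as its own, and knockdown rested on 1 hairpin. The comparison asks what changes in RNA when the fusion transcript is silenced. The labels do not say that the 2 arrays of a group came from separate cultures, so p-values measure only the spread between these arrays, which may be technical. In bulk RNA, fewer cells with a transcript and less of it per cell cannot be told apart.

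PIERCE2, the gene that general knowledge links to the hairpin's target name, read 880 and 947 in the controls and 621 and 590 after knockdown, and it fell in the intensity-trend fit, with a log2 fold change of -0.58 (limma adjusted p = 0.252 in the common-prior fit and 9.74e-05 in the intensity-trend fit). The common-prior fit gave every gene 1 prior variance, and the intensity-trend fit let that variance follow the mean intensity. CIITA itself read 59.6 and 65.1 in the controls and 60.7 and 53.6 after knockdown. All 7 markers of a Hodgkin line that were looked up passed the filter. Mean intensity per array lay between 53.3 and 54.6, and the number of arrays limits the precision. Intensities are given as deposited, and changes are differences of log2(intensity + 16), control subtracted from knockdown, a scale that shrinks the changes of dim probe sets. Levels of different probe sets are subtracted only to follow their change between groups, and are not read as relative amounts of RNA.

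Few proteasome genes passed a test. With limma's common prior, 0 of 42 members passed an adjusted p of 0.05, where 0.0155% of all genes tested did. An unadjusted p below 0.05 was found for 3 members against 14.1% of all genes, with 2 of them, PSMC3 and PSMD9, higher (6.41% of all genes) and 1, PSMA8, lower (7.68%). PSMA8 passed the filter only through the control group, where it was high, so its p is not read as support. The intensity-trend fit called 2 of 42, against 2.99% of all genes. Both, PSMC3 and PSMD9, rose, where 1.59% of all genes were called higher, and 0 members were called lower, where 1.40% of all genes were. The median log2 fold change over the 42 members was 0.04, with quartiles of 0.00 and 0.13, and over all genes tested it was -0.01, with quartiles of -0.14 and 0.11. Members lay between -0.39 and 0.38, and 39 of 42 had a 95% interval that included 0.

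More members lay above 0 than below. The counts were 32 above and 10 below, or 76.2% above, where 47.5% of all genes tested lay above 0. This background was not matched for brightness. With the filter at the 75th percentile, 32 of 41 members lay above 0, with a median of 0.04, and the median of all genes was 0.01. Both knockdown arrays exceeded both controls for 15 members, 35.7% of them against 22.7% of all genes, and both fell short of both controls for 4, against 24.5% of all genes. The other 23 overlapped, so that 45.2% of the members had groups apart, against 47.3% of all genes. The members' changes were of the size of their array-to-array differences, with a median size of 0.08 between groups, 0.10 between the 2 controls and 0.08 between the 2 knockdown arrays. Group changes are between means of 2 arrays, which vary less than single arrays. The lean also depended on which arrays were set against each other. Knockdown array 1 had 34 of 42 members above control array 2 and 28 above control array 1. Knockdown array 2 had 27 above control array 2 and 20 above control array 1, with a median difference of -0.01 in the last pair. Without control array 2 the split was 23 above and 19 below, and without control array 1 it was 31 and 11. It was 26 and 16 without knockdown array 1, and 34 and 8 without knockdown array 2. After quantile normalization it was 26 above and 16 below, and after median centring 34 and 8, where the median of all genes moved to 0.05.

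**Figure D1:**
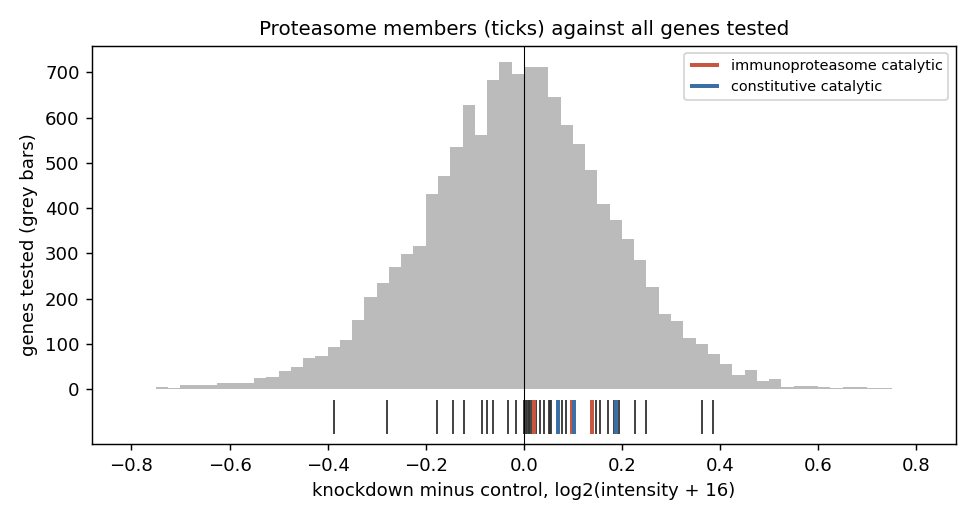
Histogram of the log2 fold change, knockdown minus control, for all genes tested (grey bars) with the 42 proteasome members marked. The members gather around their median of 0.04 within -0.39 to 0.38, and 17 genes lie beyond the plotted range of -0.8 to 0.8.

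The constitutive catalytic subunits all had changes above 0, and none passed either fit. PSMB5, which carries the chymotrypsin-like site and is the main target of bortezomib, read 209 and 218 in the controls and 242 and 249.6 after knockdown. Both knockdown arrays lay above both controls, at 214 ± 6.47 (SD, n = 2) against 246 ± 5.70 (SD, n = 2). Its log2 fold change was 0.19 (SE 0.10, 95% interval -0.05 to 0.42, limma adjusted p = 0.443 common-prior and 0.225 intensity-trend).
PSMB6, which carries the caspase-like site, read 237 and 219 in the controls and 264 and 228 after knockdown, so that the groups overlapped. Its log2 fold change was 0.10 (SE 0.11, 95% interval -0.17 to 0.38, limma adjusted p = 0.715). It was 0.0040 without knockdown array 1, 0.20 without knockdown array 2, 0.05 without control array 2 and 0.16 without control array 1. PSMB7, which carries the trypsin-like site, read 327 and 331 in the controls and 341 and 350.2 after knockdown. The knockdown arrays lay above the controls by little, with a log2 fold change of 0.07 (SE 0.10, 95% interval -0.16 to 0.30, limma adjusted p = 0.782).

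The immunoproteasome subunits also had changes above 0, and none passed either fit. PSMB8, the counterpart of PSMB5, read 139 and 119 in the controls and 135 and 127 after knockdown. Both knockdown values fell between the 2 controls, and the log2 fold change was 0.02 (SE 0.11, 95% interval -0.25 to 0.29, limma adjusted p = 0.952). Its sign turned to -0.08 without control array 2 and to -0.02 without knockdown array 1, so PSMB8 has no settled direction.
PSMB9, the counterpart of PSMB6, read 154 and 159 in the controls and 170.3 and 166 after knockdown. The groups did not overlap, at 156 ± 3.51 (SD, n = 2) against 168 ± 3.08 (SD, n = 2), and the log2 fold change was 0.10 (SE 0.10, 95% interval -0.14 to 0.33, limma adjusted p = 0.683). PSMB10, the counterpart of PSMB7, read 123 and 113 in the controls and 137 and 126 after knockdown. Its groups did not overlap either, with a log2 fold change of 0.14 (SE 0.10, 95% interval -0.11 to 0.39, limma adjusted p = 0.577). The intervals of these 6 catalytic subunits leave room for a log2 change of up to 0.42 upward, for PSMB5, and -0.25 downward, for PSMB8.

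**Figure D2:**
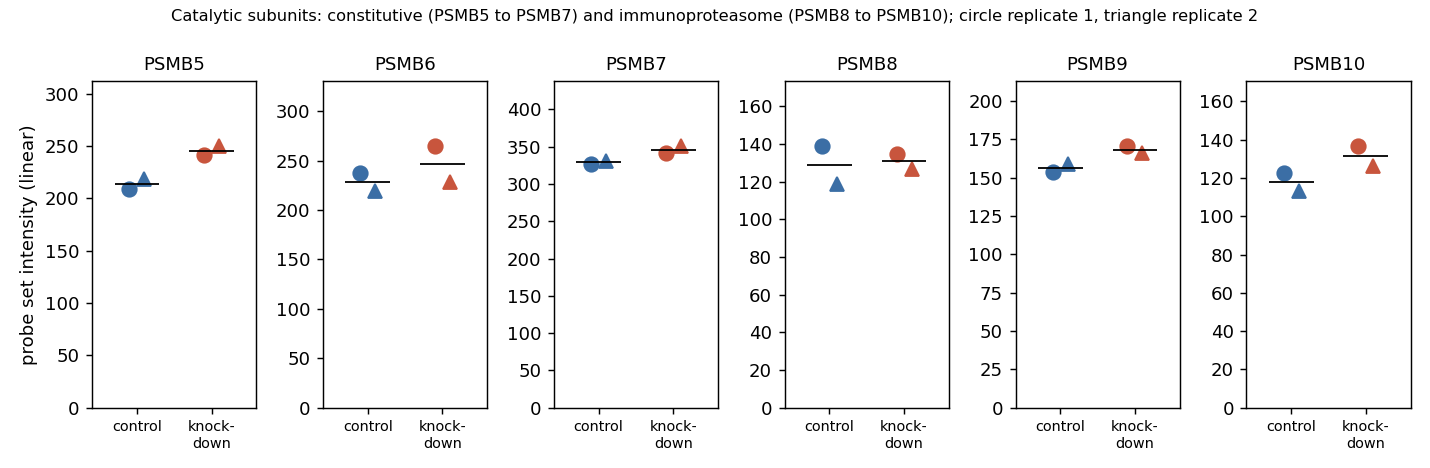
Deposited intensity of the constitutive subunits PSMB5, PSMB6 and PSMB7 and the immunoproteasome subunits PSMB8, PSMB9 and PSMB10, 1 point per array, with the mean of each group of 2. Knockdown arrays lie above both controls for PSMB5, PSMB7, PSMB9 and PSMB10 and overlap them for PSMB6 and PSMB8.

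Set against each other, the trios shifted by nearly the same amount. The mean log2 fold change was 0.09 for PSMB8, PSMB9 and PSMB10 and 0.12 for PSMB5, PSMB6 and PSMB7, a difference of -0.03. The immunoproteasome mean minus the constitutive mean, on the log2 scale, was -0.81 and -0.88 for the controls and -0.86 and -0.89 after knockdown. These levels depend on the probe sets, so only their change is read. The change of -0.03 was smaller than the difference of -0.07 between the 2 controls and about that of -0.03 between the 2 knockdown arrays. By counterpart, PSMB8 minus PSMB5 shifted by -0.17, against -0.25 between the controls and -0.12 between the knockdown arrays. PSMB9 minus PSMB6 shifted by 0.00, and PSMB10 minus PSMB7 by 0.07, against a size of 0.11 between the controls, where it was -1.31 and -1.42. Each counterpart pair therefore shifted by less than its own 2 controls differed, but PSMB8 minus PSMB5 shifted by more than its 2 knockdown arrays differed. Shifts are between means of 2 arrays, which vary less than single arrays, so this comparison is rough. No p is given for these values, since with 2 arrays against 2 the smallest two-sided exact permutation p is 0.333.

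The promoters of the immunoproteasome genes and of PSMB5 are printed because the contrast turns on these genes. Each run is the 250 bases before the outermost annotated start, from RefSeq on GRCh38.p14, written 5′ to 3′ on the gene's strand, and capitals mark a match on either strand to GAAANNGAAA, TTCNNNGAA or TGACNNNGC. PSMB8 is chr6:32844680-32844929 on the minus strand, PSMB9 is chr6:32853942-32854191 on the plus strand, PSMB10 is chr16:67936851-67937100 on the minus strand and PSMB5 is chr14:23035221-23035470 on the minus strand.
PSMB8: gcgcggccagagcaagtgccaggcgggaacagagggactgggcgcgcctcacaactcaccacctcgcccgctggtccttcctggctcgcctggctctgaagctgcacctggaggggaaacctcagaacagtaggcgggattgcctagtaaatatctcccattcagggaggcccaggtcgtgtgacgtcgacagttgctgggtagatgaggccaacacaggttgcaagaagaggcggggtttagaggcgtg
PSMB9: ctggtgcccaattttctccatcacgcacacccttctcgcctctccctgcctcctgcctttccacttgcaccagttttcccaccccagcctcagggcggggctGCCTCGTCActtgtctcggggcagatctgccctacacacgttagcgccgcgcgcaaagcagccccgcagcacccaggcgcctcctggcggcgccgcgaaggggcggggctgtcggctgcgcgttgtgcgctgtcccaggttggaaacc
PSMB10: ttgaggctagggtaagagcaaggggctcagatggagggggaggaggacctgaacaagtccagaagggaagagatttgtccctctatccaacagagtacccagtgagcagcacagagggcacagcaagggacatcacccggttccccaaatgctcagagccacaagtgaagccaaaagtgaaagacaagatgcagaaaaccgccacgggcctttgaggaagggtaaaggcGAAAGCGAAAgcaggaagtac
PSMB5: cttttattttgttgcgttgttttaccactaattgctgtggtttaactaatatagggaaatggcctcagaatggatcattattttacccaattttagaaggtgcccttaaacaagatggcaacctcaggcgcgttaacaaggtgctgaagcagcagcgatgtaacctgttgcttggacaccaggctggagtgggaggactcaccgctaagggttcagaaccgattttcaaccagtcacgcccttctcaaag
The window of PSMB10 held 1 match to GAAANNGAAA, the core of an interferon-stimulated response element, whose first base lay at -21 from the start. The window of PSMB9 held 1 match to TGACNNNGC, the core of an antioxidant response element, at -148. In PSMB8 and PSMB5 these letters were not found in the window.

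Over the 36 members with a promoter in the RefSeq table, GAAANNGAAA occurred in 4 (PSMA4, PSMB4, PSMB10 and PSMG4), or 11.1%, against 3.02% of all 35116 promoters of the same length. TTCNNNGAA, the core of a gamma-activated site, occurred in 5 members, or 13.9%, against 6.57%. TGACNNNGC occurred in 10 members, or 27.8%, against 10.9%, and CCAAT in 15, or 41.7%, against 32.0%. Each member counted with 1 promoter, at its outermost start. The 35116 were every promoter in the table, not reduced to 1 per gene and not matched to the members. These shares are therefore not strictly alike, and their differences were not tested. The table held no entry for PSMA7, PSMB1, PSMB6, PSMB7, PSMD4 and PSMG3. PSMB8 and PSMB9 lie on chromosome 6 next to the peptide transporter genes TAP1 and TAP2, and 487 bases separate the starts of TAP1 and PSMB9. TAP1 read 361 and 368 in the controls and 376 and 396 after knockdown, a log2 fold change of 0.08 beside 0.10 for its neighbour PSMB9, and it passed neither fit (limma adjusted p = 0.745 and 0.631).

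Among the alpha subunits, which form the outer rings and the gate, 5 of 7 lay above 0, with a median log2 fold change of 0.02, and none passed either fit. PSMA5 read 260 and 246 in the controls and 290.1 and 283 after knockdown, with groups apart and a log2 fold change of 0.17. PSMA4 read 952 and 1054 in the controls and 937 and 875 after knockdown, with both knockdown arrays below both controls and a log2 fold change of -0.14. PSMA1, at 859 and 856 in the controls and 894 and 823 after knockdown, had a log2 fold change of 0.00.
PSMA2 read 589 and 593 in the controls and 624 and 603 after knockdown, apart by little, with 0.05 on the log2 scale. PSMA7 read 852 and 893 in the controls and 893 and 952 after knockdown, with 0.08, and PSMA3 read 1470 and 1312 in the controls and 1409 and 1411 after knockdown, with 0.02, so the groups of both overlapped. PSMA8, the alpha subunit of the testis proteasome, read 17.6 and 13.8 in the controls and 7.99 and 8.42 after knockdown. Its mean after knockdown, 8.21, lay below the filter of 8.26, so PSMA8 entered the test only through the control group. Its log2 fold change was -0.39 (SE 0.11, 95% interval -0.64 to -0.13, unadjusted p = 0.00946, limma adjusted p = 0.258 common-prior and 0.237 intensity-trend), and a stricter filter at the 75th percentile left it out.

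The noncatalytic beta subunits, which hold the beta ring together, all lay above 0 at their brightest probe sets, with a median of 0.08. PSMB3 read 396 and 409 in the controls and 477 and 442 after knockdown, a log2 fold change of 0.18 with groups apart. PSMB2, at 201 and 197 in the controls and 218 and 211 after knockdown, had 0.10. Above the filter, a dimmer PSMB2 probe set had -0.20, with both knockdown arrays below both controls, and another had 0.27 with overlap. PSMB4 read 1141 and 1062 in the controls and 1142 and 1145 after knockdown, with 0.05. PSMB1 was the 1 structural subunit whose groups overlapped at the brightest probe set. It read 968 and 1053 in the controls and 1026 and 1043 after knockdown, with 0.03. Over all genes, 47.3% had groups apart, and 22.7% had both knockdown arrays above both controls. None of these 4 passed either fit.

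The base ATPases thread the substrate into the core, and PSMC3 among them rose in the intensity-trend fit. PSMC3 read 165 and 141 in the controls and 203 and 199 after knockdown. Both knockdown arrays lay above both controls, at 153 ± 16.5 (SD, n = 2) against 201 ± 2.90 (SD, n = 2). The log2 fold change was 0.36 (SE 0.11, 95% interval 0.10 to 0.63, limma adjusted p = 0.273 common-prior and 0.0373 intensity-trend). The call was lost without control array 2 (adjusted p = 0.175), without knockdown array 1 (0.116) and without knockdown array 2 (0.127), and held without control array 1 (0.0278). It was also lost with no filter (0.0938), after quantile normalization (0.0516) and with the mean of each gene's probe sets (0.137). The change of PSMC3 was still 0.36 with that mean. Calls over all genes went from 387 to 83, 347 and 23 in these settings, so the losses were not particular to PSMC3.
The other 4 base ATPases passed neither fit. PSMC2 read 361 and 383 in the controls and 409 and 418 after knockdown, also with groups apart, and had a log2 fold change of 0.15 (95% interval -0.09 to 0.39). Its difference from PSMC3 was not tested. PSMC4 read 558 and 555 in the controls and 499 and 482 after knockdown, with groups apart in the other direction and a log2 fold change of -0.18 (limma adjusted p = 0.462 and 0.166). PSMC6 read 596 and 548 in the controls and 573 and 506 after knockdown, with -0.08, and PSMC1 had -0.03, both with overlapping groups.

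The promoter of PSMC3, chr11:47426440-47426689 on the minus strand of GRCh38.p14, and that of PSMD9, chr12:121888540-121888789 on the plus strand, are printed since these 2 genes passed the intensity-trend fit, with capitals as before.
PSMC3: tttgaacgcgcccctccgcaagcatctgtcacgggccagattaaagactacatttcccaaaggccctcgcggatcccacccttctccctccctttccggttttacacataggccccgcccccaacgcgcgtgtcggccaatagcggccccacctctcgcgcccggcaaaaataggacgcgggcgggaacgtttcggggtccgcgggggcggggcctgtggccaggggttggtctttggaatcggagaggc
PSMD9: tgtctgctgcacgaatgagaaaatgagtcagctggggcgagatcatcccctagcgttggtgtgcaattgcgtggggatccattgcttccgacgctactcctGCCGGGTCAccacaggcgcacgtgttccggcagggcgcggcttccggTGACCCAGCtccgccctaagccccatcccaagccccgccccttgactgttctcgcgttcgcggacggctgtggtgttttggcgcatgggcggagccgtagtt
PSMD9 held 2 matches to TGACNNNGC, at -149 and -102, and PSMC3 held none of the 3 motifs marked, but 1 CCAAT at -114.

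PSMD9, a chaperone that helps the base assemble and leaves before the proteasome is complete, was the other gene that rose in the intensity-trend fit. It read 119.5 and 108 in the controls and 160.4 and 146 after knockdown, with no overlap, at 114 ± 8.41 (SD, n = 2) against 153 ± 10.3 (SD, n = 2). The log2 fold change was 0.38 (SE 0.11, 95% interval 0.13 to 0.64, limma adjusted p = 0.258 common-prior and 0.0364 intensity-trend). A dimmer PSMD9 probe set read 17.7 and 14.6 in the controls and 10.8 and 13.6 after knockdown, a log2 fold change of -0.19, so the 2 probe sets of PSMD9 disagreed in sign. The call was lost without control array 2 (adjusted p = 0.142), without knockdown array 1 (0.225) and without knockdown array 2 (0.0671), and held without control array 1 (0.0455). It was lost with no filter (0.0906), and with the mean of each gene's probe sets the change was 0.10 (0.637). Calls over all genes went from 387 to 83 and 23 in these settings.

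Of the 7 assembly chaperones, 5 lay above 0, with a median of 0.04, and under the settings used throughout only PSMD9 passed a fit. PSMG1 and PSMG2 form the dimer that guides assembly of the alpha ring. PSMG2 read 436 and 515 in the controls and 557 and 575 after knockdown, with groups apart and a log2 fold change of 0.25 (limma adjusted p = 0.391 and 0.0923), and it passed the intensity-trend fit without control array 2 (0.0433). PSMG1 read 314 and 269.7 in the controls and 353 and 333 after knockdown, also apart, with 0.23 (limma adjusted p = 0.425 and 0.152). PSMG3 and PSMG4, the second assembly dimer, had 0.04 and -0.07. The base chaperones PSMD5 and PSMD10 had 0.01 and -0.12, and both overlapped between groups.

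**Figure D3:**
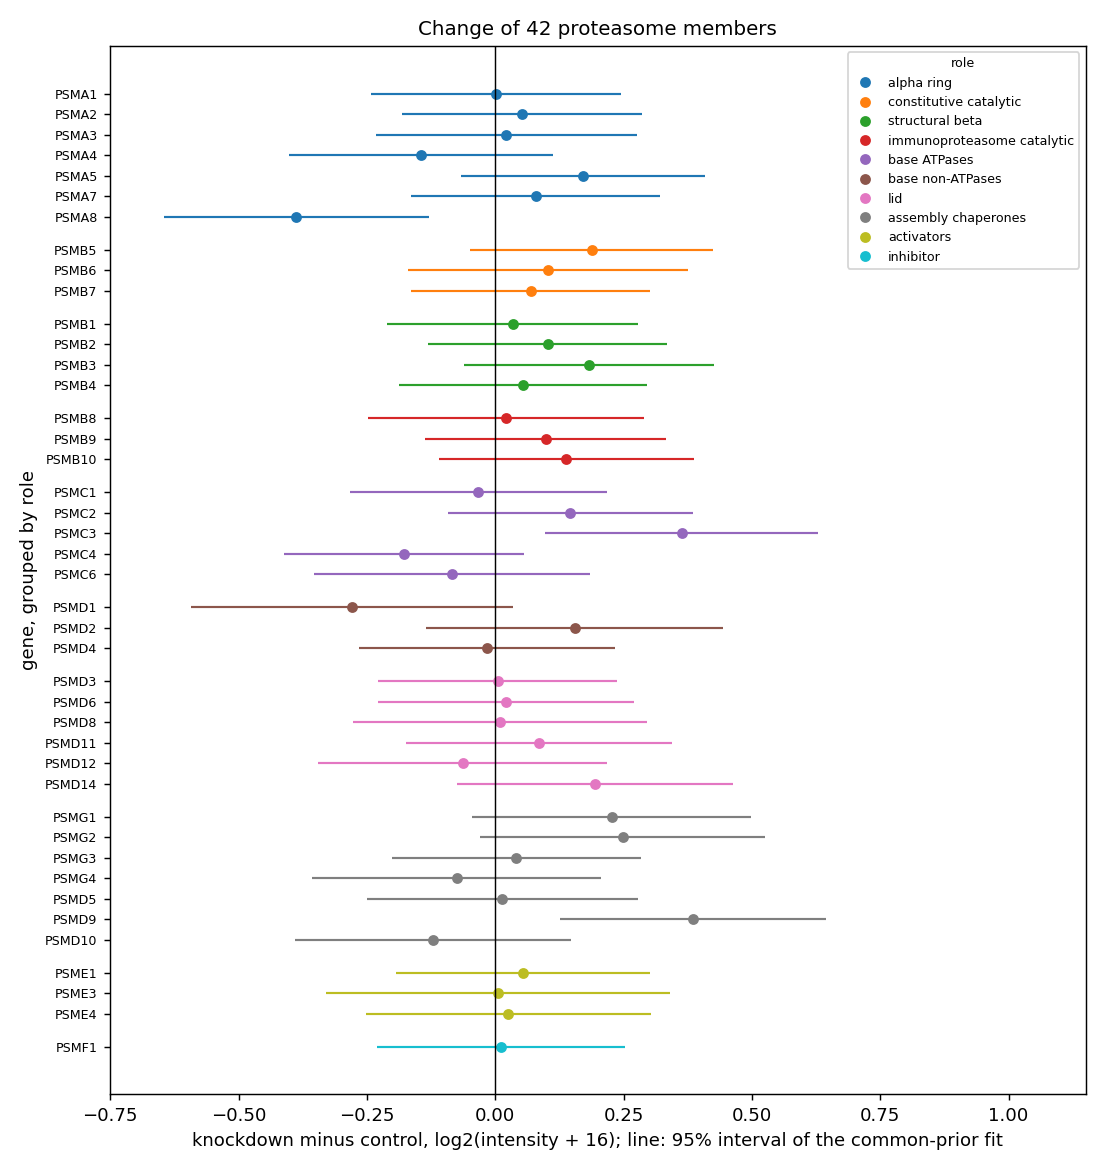
Log2 fold change, knockdown minus control, of each of the 42 members grouped by role, with the 95% interval of the common-prior fit. Intervals exclude 0 for PSMC3 at 0.36 and PSMD9 at 0.38, and for PSMA8 at -0.39, which passed the filter only through the control group, and include it for the other 39.

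The base subunits without ATPase activity scaffold the particle and bind ubiquitin chains or their carriers. PSMD1 read 356 and 426 in the controls and 344 and 294 after knockdown, with both knockdown arrays below both controls. Its log2 fold change was -0.28 (SE 0.13, limma adjusted p = 0.395 and 0.108), while a second PSMD1 probe set read 226 and 194 in the controls and 245.1 and 245.4 after knockdown, a log2 fold change of 0.21. The 2 probe sets thus moved in opposite directions without overlap between the groups. On all 4 arrays neither passed a fit, except the brighter one with the replicate number as a block. Leaving out 1 array moved the change of the brighter PSMD1 probe set between -0.15 (without control array 2) and -0.40 (without control array 1). It was -0.17 without knockdown array 2, and without knockdown array 1 it was -0.39 and passed the intensity-trend fit (limma adjusted p = 0.0131). PSMD2, a scaffold subunit, read 277 and 228 in the controls and 288 and 276 after knockdown, so that 1 control exceeded 1 knockdown array, with 0.15. The ubiquitin receptor PSMD4 had -0.02 and overlapped too.

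Of the 6 lid subunits, 5 lay above 0, with a median of 0.02. PSMD14, the lid's deubiquitinating enzyme, read 333 and 386 in the controls and 421 and 405 after knockdown, with groups apart and a log2 fold change of 0.19 (limma adjusted p = 0.476 and 0.199). At their brightest probe sets, the structural lid subunits PSMD3, PSMD6, PSMD8, PSMD11 and PSMD12 lay between -0.06 and 0.09 and overlapped between groups. Groups were apart for 47.3% of all genes. A dimmer PSMD12 probe set had -0.15, with both knockdown arrays below both controls. A dimmer PSMD11 probe set had 0.07 with overlap.

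The activators that open the core in place of the regulatory particle overlapped between groups in 3 of 3 cases at their brightest probe sets. Of all genes, 47.3% had groups apart. PSME1, a subunit of the interferon-inducible activator, read 658 and 703 in the controls and 733 and 682 after knockdown. Its log2 fold change was 0.05 (SE 0.10, 95% interval -0.19 to 0.30, limma adjusted p = 0.850 and 0.742). PSME3, the nuclear activator, read 158 and 145 in the controls and 174 and 132 after knockdown, with 0.01 on the log2 scale and the widest standard error of the members, 0.14. PSME4 read 121 and 128 in the controls and 139 and 116 after knockdown, with 0.03. For both, the knockdown arrays lay on either side of the 2 controls. The inhibitor PSMF1 read 115 and 118 in the controls and 113 and 122 after knockdown, a log2 fold change of 0.01. Dimmer probe sets of these genes were mixed. For PSME3 they had 0.21 and -0.07 with groups apart, and 0.09 with overlap. For PSME4 they had -0.22 with groups apart and 0.02 with overlap. For PSMF1 they had 0.27 with groups apart, and 0.13 and -0.09 with overlap.

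**Figure D4:**
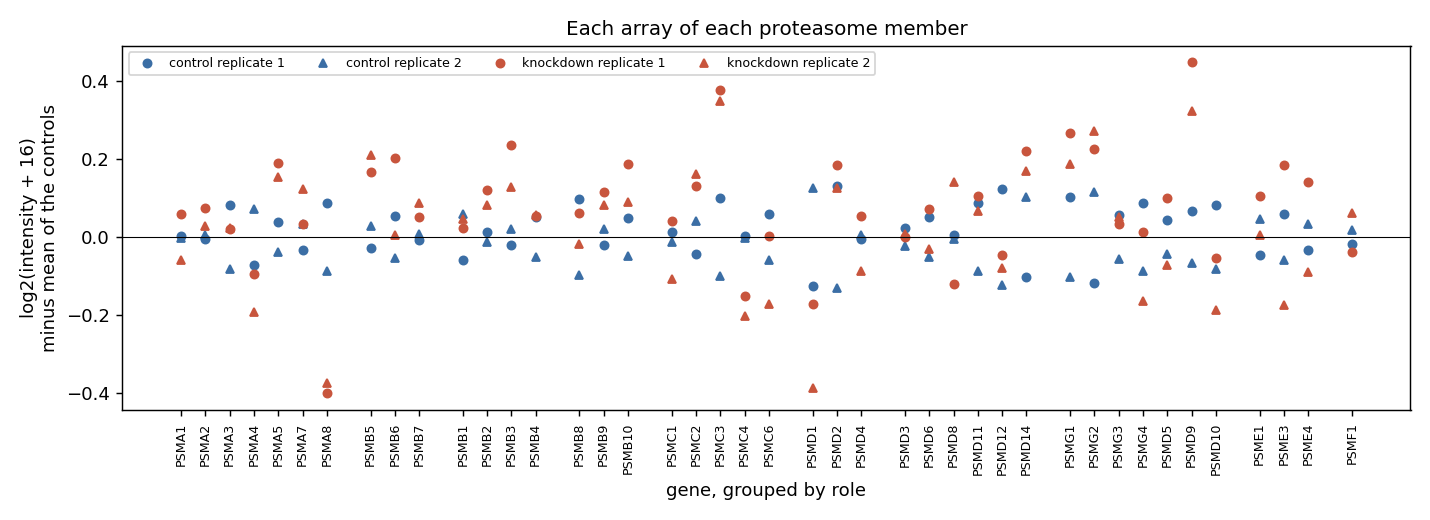
Each member's value on each of the 4 arrays as log2(intensity + 16) minus its mean over the control arrays, grouped by role. The groups overlap for 23 members. Both knockdown arrays lie above both controls for 15, PSMC3 and PSMD9 among them, and below both for 4.

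Other probe sets of the same genes gave a mixed picture. The 42 members had 81 probe sets naming 1 gene, 72 of them above the filter, and 18 members had more than 1. Of the 30 further probe sets, 18 had the sign of the brightest and 12 the other sign. With every probe set above the filter tested as a row of its own, an alternative chosen after the data were seen, the intensity-trend fit called 591 of 27307, or 2.16%, and 4 were of members, all higher. These were the PSMC3 and PSMD9 probe sets above (limma adjusted p = 0.0460 and 0.0443) and further ones of PSMB4 and PSMA7. The PSMB4 one read 219 and 239.6 in the controls and 309.5 and 317 after knockdown, a log2 fold change of 0.43 (0.00926), where the brightest PSMB4 probe set had 0.05 and another -0.01. The PSMA7 one read 306 and 296 in the controls and 398 and 362 after knockdown, 0.32 on the log2 scale (0.0350), where the brightest had 0.08.

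**Figure D5:**
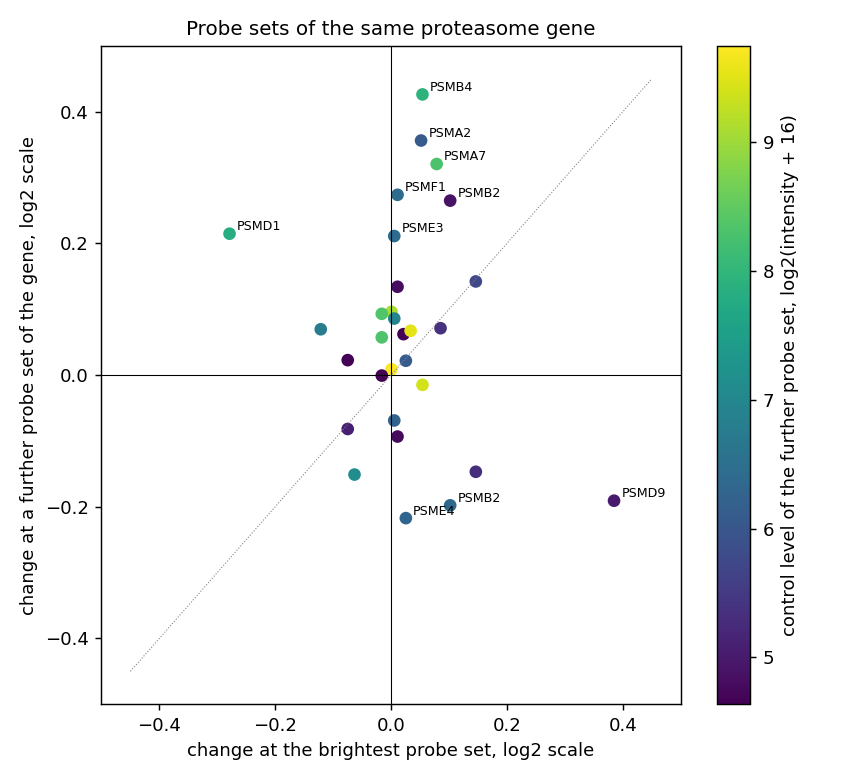
Log2 fold change of each of the 30 further probe sets above the filter (vertical axis) against that of the brightest probe set of the same gene (horizontal axis), coloured by the further probe set's control level, with equality as a dotted line. PSMD1 lies at -0.28 and 0.21 and PSMD9 at 0.38 and -0.19, while PSMB4 reaches 0.43 on a further probe set.

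Some single markers of other cells also differed between the groups, and others did not. The T cell gene CD3D rose in the intensity-trend fit, from 194 and 183 to 253 and 225 (limma adjusted p = 0.0499), while CD3E, CD3G and CD8A were below the filter, and the summed level of the 4 was 191 to 202 in the controls and 235 to 274 after knockdown. The 4 fibroblast genes summed to 126 to 138 in the controls and 97.0 to 98.9 after knockdown. The Hodgkin markers summed to 1214 to 1225 in the controls and 1096 to 1143 after knockdown, but 5 of the 7 lay above 0, with a median log2 fold change of 0.04, and FSCN1 went from a mean of 631 to 504. COL1A2 of the fibroblast genes and FSCN1 of the Hodgkin markers fell in the intensity-trend fit (limma adjusted p = 0.0405 and 0.0162). Natural killer and epithelial genes summed to at most 41.4 on any array, and monocyte genes to 108 to 111 in the controls and 107 to 111 after knockdown. Their part in the changes of PSMC3 and PSMD9 was not tested.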

How the data were processed

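The authors deposited linear intensities for each probe set on each array, summarised from the scans by steps not given in the sources used here. Per the labels' protocols, biotinylated cRNA was made by the Affymetrix 1-cycle method. Of 54613 probe sets, 41091 named 1 gene in the platform annotation, and each gene was read on the one with the highest mean. Deposited values were turned into log2(intensity + 16), and genes with a mean below the median probe set (4.60, an intensity of 8.26) were left out. Array medians spanned 0.07, so arrays were not centred. Knockdown was compared with control over all 12922 genes by lmFit and eBayes of limma 3.58.1, run in R 4.3.3, under a common and an intensity-trend prior, Benjamini-Hochberg adjustment and a threshold of 0.05. The code was tested on simulated data. The members, lists and tests were chosen with earlier results of these data known. The 6 catalytic subunits, PSME1 and every member past either fit were described in full, with targets and the other members by role. Same-numbered arrays did not deviate together (correlation -0.01), so numbers were not taken as pairs. Promoters came from RefSeq (GRCh38.p14).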

Additional observations from a re-analysis of the deposited data

How the results depend on the processing

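The count of 0 members called in the common-prior fit became 2 with the intensity-trend prior and 2 with a pseudocount of 64, PSMC3 and PSMD9 both times, and stayed 0 without each array in turn. The intensity-trend count of 2 became 0 with no filter, 1 after quantile normalization, 0 when a gene's probe sets were averaged, 0 at a threshold of 0.01 and 4 with every probe set as a row, and it ranged from 0 to 2 when 1 array was left out (0 without knockdown array 2). The genes called then differed: PSMC3 and PSMD9 without control array 1, PSMG2 alone without control array 2, and PSMD1 alone, lower, without knockdown array 1. With a pseudocount of 64, common-prior calls over all 12922 genes went from 2 to 416. Intensity-trend calls over all genes went from 387 to 83 with no filter, 347 after quantile normalization and 23 when probe sets were averaged. After median centring the intensity-trend count was 3, adding PSMG2, while the calls over all genes went from 387 to 612. With the replicate number as a block it was 5, adding PSMD1, PSMG1 and PSMG2, while the calls over all genes went from 387 to 1010. Same-numbered arrays were not shown to be pairs. The median log2 fold change of 0.04 was 0.095 after median centring, where the median of all genes moved to 0.05, and 0.014 (without control array 2) to 0.067 (without knockdown array 2) when 1 array was left out. The difference between immunoproteasome and constitutive subunits ranged from -0.07 to 0.00 when 1 array was left out. PSMB8 was -0.0042 after quantile normalization, and -0.077 to 0.12 when 1 array was left out. For the 9 genes described in full, 92 of 99 recomputed values kept the direction and side of the threshold of the common-prior fit. Another 4 became stronger and 3 reversed. The common-prior fit called 0 members to begin with, so this count does not describe how firm the intensity-trend calls of PSMC3 and PSMD9 were. Counting every symbol that begins by the rule, PSMC3IP included, gave 3 calls in the intensity-trend fit. This and the probe set alternative were chosen after seeing the data. The cause of these shifts was not tested. With 2 arrays a group, small changes cannot be resolved.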

Other observations

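Of the genes that serve the proteasome from outside the family, 1 of those listed here passed a fit. Of 16 tested maturation and associated factors, 14 lay above 0, with a median log2 fold change of 0.05, and none passed the common-prior or the intensity-trend fit. POMP, the maturation factor of the core, read 742 and 702 in the controls and 732 and 756 after knockdown, a log2 fold change of 0.04. PAAF1, which binds the base ATPases during assembly, read 49.96 and 58.5 in the controls and 68.8 and 72.7 after knockdown, with groups apart and 0.31 (limma adjusted p = 0.302 and 0.157). Of 9 tested genes of the transcriptional control of proteasome genes, 4 lay above 0 and 5 below, with a median of -0.08. MAFG, a small partner of the NFE2 family factors, read 112 and 126 in the controls and 72.6 and 88.9 after knockdown and fell in the intensity-trend fit, at -0.48 on the log2 scale (limma adjusted p = 0.255 common-prior and 0.0245 intensity-trend), where 1.40% of all genes were called lower. NFE2L1, the factor that raises proteasome genes when the proteasome is inhibited, read 155 and 165 in the controls and 149.8 and 137 after knockdown, a log2 fold change of -0.15 that passed neither fit. Of 3 tested ubiquitin and ubiquitin-activating genes, 2 lay above 0 and none passed either fit.

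On the interferon gamma route to the immunoproteasome, 7 of 10 tested genes lay above 0, with a median of 0.10, and none passed either fit. IRF1, the transcription factor of that route, read 103 and 98.4 in the controls and 94.9 and 96.3 after knockdown, a log2 fold change of -0.06. IFNG itself was dim, at 15.6 and 24.5 in the controls and 3.52 and 10.6 after knockdown. Its knockdown mean of 7.07 lay below the filter of 8.26, so it entered the test only through the control group and no p is given. Of 12 tested genes that supply peptides to class I molecules, 10 lay above 0, with a median of 0.08, and none passed either fit. All these lists were chosen with earlier results of these data known.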
